A study of Mus musculus with 15 samples.

Results

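Baseline gene expression in the ventral (vDG) and dorsal (dDG) dentate gyrus was compared in 6 WT input samples, 3 of each region, taken from a series of 15 samples. All WT inputs of both regions were used, and every gene that passed a filter on low counts was tested. An input is the RNA of the whole dissected tissue, drawn from the homogenate before translating ribosome affinity purification (TRAP), and so it holds the transcripts of every cell type in the dissection. Mice of both regions were Wildtype for *Htr4* and carried Drd3-Cre KI198, a BAC transgene that drives Cre mainly in the hippocampus, together with Rosa26-fsTRAP, which makes an EGFP-tagged ribosomal protein in cells with Cre. They were on a C57BL/6J background and were 8 to 12 weeks old. Each sample pooled tissue of 2 mice, a male and a female by the study's methods. Their source field calls the inputs cortex, whereas the brain region field and the methods give dentate gyrus. The methods call each pool a biological replicate, and no source says that equal replicate numbers in the regions mark the same mice. For single results, 4 inputs of cKO mice of the same lines and age (2 vDG, 2 dDG, pools of 2 mice), which in addition carried Htr4-Floxed, and 3 WT vDG IP samples (pools of 3 mice by the labels), the ribosome-bound RNA of cells with Cre, were set beside these values. The driver labels granule and mossy cells of the dentate gyrus and some CA cells.

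The dentate gyrus is the entry station of the hippocampus, where granule cells receive entorhinal input and send mossy fibers to CA3. Its hilus holds mossy cells and several kinds of GABAergic interneuron, and granule cells continue to be born in the adult subgranular zone. The dorsal hippocampus is best known for spatial memory, and the ventral hippocampus for emotional behavior and stress responses. In mouse, mossy cells contain calretinin mainly in the ventral part, which makes *Calb2* a familiar marker of this axis.

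Counts on genes ranged from 24600051 to 28098245 per vDG input and from 19039295 to 30451430 per dDG input, and 15412 of 32657 features passed the filter on low counts. Pearson correlations of log2 CPM (counts per 1000000 counts on genes, with library sizes scaled by TMM) were 0.983 to 0.990 between samples of the same region and 0.952 to 0.969 between regions. The first principal component held 62.9% of the variance and separated the regions. The defining granule cell gene *Prox1* had 989, 927 and 1044 CPM in the dDG inputs and 680, 757 and 649 CPM in the vDG inputs. Summed levels of 20 granule cell markers were 3096 to 5681 CPM. Either 1 or 2 dDG samples stood apart for markers of choroid plexus and meninges, and these values are given with the cell type lists.

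At a false discovery rate (FDR, the Benjamini-Hochberg adjusted p of edgeR's quasi-likelihood F-test over all genes tested) under 0.05, 1427 genes were higher in vDG, which is 9.26% of those tested, and 938 were higher in dDG, which is 6.09%. Larger differences lay mostly on the ventral side. Of the genes higher in vDG, 586 differed by at least 2-fold and 56 by at least 8-fold, whereas 216 and 10 of the genes higher in dDG did so. The median absolute log2 difference was 0.83 for genes higher in vDG and 0.64 for genes higher in dDG. All 3 samples of the higher region lay above all 3 of the other for 1405 and 913 of the called genes, against 31.3% of all genes tested. The median log2 difference over all genes was -0.01 after TMM scaling, which centres the differences. The shares of 9.26% and 6.09% are the background against which the counts over gene lists are given.

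**Figure D1:**
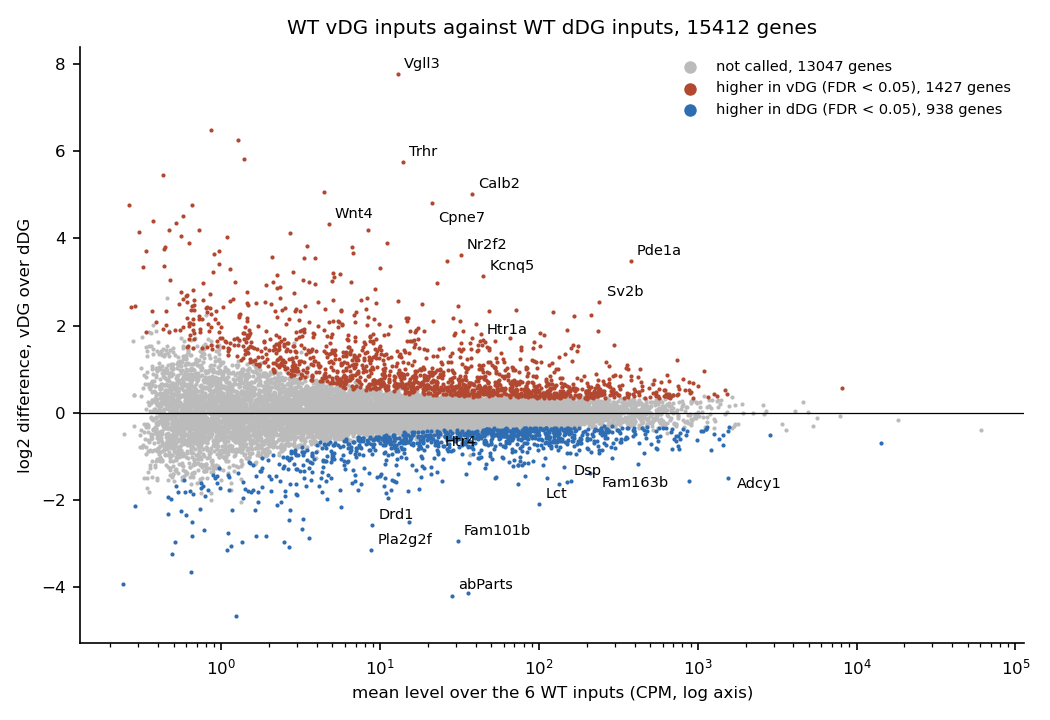
Each point is a gene, placed by its mean level over the 6 WT inputs (CPM, log axis) and its log2 difference of vDG over dDG. The 1427 genes higher in vDG (red) reach larger differences than the 938 higher in dDG (blue), and grey points are genes that did not pass the FDR of 0.05.

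The study uses *Trhr* and *Lct* to mark vDG and dDG, *Dsp* to mark the dentate gyrus and *Tyro3* to mark the CA fields. *Trhr* was higher in vDG and *Lct* in dDG, while *Dsp* was higher in dDG and *Tyro3* in vDG. *Trhr*, the thyrotropin-releasing hormone receptor (chromosome 15, 44196135 to 44235912, plus strand, GRCm38), had 0.743, 0.566 and 0.272 CPM in the dDG inputs and 23.0, 26.5 and 32.8 CPM in the vDG inputs. Every vDG sample exceeded every dDG sample, with a log2 difference of 5.75 ± 0.27 (SE, n = 3 per region, edgeR FDR 2.93e-10). *Lct*, which encodes lactase (chromosome 1, 128284756 to 128328318, minus strand), went the other way at 132, 170 and 187 CPM in dDG and 34.9, 45.3 and 34.3 CPM in vDG, and the groups did not overlap (log2 difference -2.10 ± 0.15, edgeR FDR 5.52e-08). *Dsp*, encoding the junction protein desmoplakin, was 2.99-fold higher in dDG (225 ± 31.9 against 75.2 ± 25.0 CPM, SD, n = 3). *Tyro3*, a receptor tyrosine kinase gene and the CA marker, was 2.60-fold higher in vDG (7.11 ± 1.17 against 2.71 ± 0.31 CPM).

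Above a mean level of 5 CPM the gene with the largest difference was *Vgll3*, a cofactor of TEAD transcription factors (chromosome 16, 65815257 to 65866368, plus strand). It had 20.04, 26.5 and 30.7 CPM in the vDG inputs and 0.0465, 0.154 and 0.136 CPM in the dDG inputs. Only 8 reads fell on *Vgll3* in the 3 dDG inputs together, against 2008 in the vDG inputs, a ratio of 226 after scaling with a 95% counting interval of 115 to 525 (exact binomial). *Calb2*, encoding calretinin (chromosome 8, 110137502 to 110168210, minus strand), had 68.1, 66.3 and 84.8 CPM in vDG and 1.39, 3.09 and 2.35 CPM in dDG. It was 32.2-fold higher in vDG (edgeR FDR 1.06e-10). *Cpne7*, a calcium-binding copine, was 28.1-fold higher, at 35.1, 43.2 and 44.7 CPM in vDG against 1.72, 1.08 and 1.53 CPM in dDG.

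*Nr2f2*, which encodes the nuclear receptor COUP-TFII (chromosome 7, 70351944 to 70366735, minus strand), had 53.0, 62.2 and 62.8 CPM in vDG and 5.90, 5.04 and 3.78 CPM in dDG, a 12.2-fold difference (log2 3.61 ± 0.17, edgeR FDR 3.36e-10). Both receptors for glucagon-like peptides were on the list. *Glp1r* was 9.23-fold and *Glp2r* 9.92-fold higher in vDG, at mean levels of 9.13 ± 1.86 and 18.1 ± 4.65 CPM. The potassium channel gene *Kcnq5* went from 5.81, 8.79 and 12.5 CPM in dDG to 73.5, 93.2 and 73.6 CPM in vDG. *Scml4*, *Nkd2* (an inhibitor of Wnt signaling that binds Dishevelled), the cation channel gene *Trpc7*, the kinase gene *Stk32b*, *Mettl24* and the collagen gene *Col12a1* filled the other places, with log2 differences of 4.20, 3.89, 3.80, 3.47, 3.19 and 3.10. The regions did not overlap for any of these 15 genes, which the naming rule required.

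Above a mean of 50 CPM, the largest ventral difference was that of *Pde1a*, a calcium- and calmodulin-stimulated phosphodiesterase that breaks down cyclic nucleotides (chromosome 2, 79834453 to 80129458, minus strand). It had 630, 729 and 719 CPM in vDG and 53.1, 65.7 and 68.8 CPM in dDG, an 11.1-fold difference (log2 3.47 ± 0.13, edgeR FDR 5.79e-11). The synaptic vesicle protein gene *Sv2b* followed at 388, 442 and 386 CPM in vDG and 52.1, 59.4 and 96.8 CPM in dDG. *Slc8a1*, the sodium-calcium exchanger NCX1, had a log2 difference of 1.89 ± 0.15, the plasma membrane calcium pump gene *Atp2b4* one of 1.79 ± 0.13 and *Necab1*, encoding an EF-hand calcium-binding protein, one of 1.82 ± 0.14. *Crym*, whose product binds thyroid hormone in the cytosol, was 5.14-fold higher (120 ± 13.4 against 23.4 ± 7.31 CPM) and the metalloproteinase inhibitor gene *Timp2* 4.98-fold higher. *Tnfaip8l3*, *Nnat* and *Spock1* completed the 10 genes with log2 differences of 2.24, 2.21 and 1.89, and the last 2 are counted below among CA3 markers.

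On the dorsal side the largest difference belonged to *abParts*, an annotation entry for pieces of immunoglobulin loci that has no single position, so its reads cannot be assigned to a gene. It had 76.1, 32.8 and 52.6 CPM in dDG and 3.46, 2.90 and 2.48 CPM in vDG. *Pla2g2f*, a secreted phospholipase A2 (chromosome 4, 138750533 to 138757626, minus strand), had 13.8, 16.0 and 17.7 CPM in dDG and 2.16, 1.68 and 1.502 CPM in vDG, an 8.88-fold difference. *Fam101b*, also known as Refilin B and a partner of filamin (chromosome 11, 76019194 to 76027782, minus strand), had 56.7, 45.4 and 61.2 CPM in dDG and 5.03, 8.65 and 7.51 CPM in vDG (7.70-fold, edgeR FDR 1.85e-08). *Drd1*, the dopamine D1 receptor, varied more among the dDG samples, at 22.1, 8.95 and 14.6 CPM, but even the lowest exceeded the vDG values of 2.87, 3.003 and 1.79 CPM. *Nhlh1*, a basic helix-loop-helix transcription factor, was 5.67-fold higher in dDG (25.8 ± 5.34 against 4.56 ± 0.61 CPM).

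*Cyp26b1*, which degrades retinoic acid, was 3.46-fold higher in dDG (23.2 ± 5.005 against 6.74 ± 1.95 CPM, edgeR FDR 1.05e-05). Among the other dorsal genes were *Rph3al*, a Rab effector of exocytosis (log2 -2.15 ± 0.28), *Prkcd*, encoding protein kinase C delta (-1.68 ± 0.22), the guidance ligand gene *Sema3c* (-1.77 ± 0.24), *Lingo3* (-1.75 ± 0.16), *Card6* (-1.96 ± 0.25) and *Gpnmb* (-1.84 ± 0.18). *Wnt9a* was less even, with 32.6 CPM in dDG replicate 1 but 8.54 and 12.9 CPM in the other dDG samples, against 7.78, 3.43 and 4.59 CPM in vDG (log2 -1.77 ± 0.38). *Fibcd1* likewise took 13.0 CPM in dDG replicate 1 and 6.48 and 6.40 CPM in the others, all above the vDG values of 1.97, 4.00 and 1.54 CPM. Without dDG replicate 1 the log2 difference of *Wnt9a* was -1.04.

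Abundant dorsal genes differed by smaller factors at much higher levels. *Adcy1*, the calmodulin-stimulated adenylyl cyclase that makes cyclic AMP (chromosome 11, 7063489 to 7178506, plus strand), had 2439, 2266 and 2182 CPM in dDG and 737, 956 and 746 CPM in vDG, a 2.82-fold difference (log2 -1.5 ± 0.12, edgeR FDR 2.09e-07). *Fam163b* had 1352, 1237 and 1359 CPM in dDG and 420, 524 and 396 CPM in vDG. *Net1* (log2 -1.62 ± 0.11), *Plekha2* (-1.57 ± 0.11), *Plekha5* (-1.49 ± 0.11), *Fam84b* (-1.64 ± 0.15), *Inf2* (-1.46 ± 0.15) and *Spsb1* (-1.5 ± 0.21) were the other genes of this group beside *Lct* and *Dsp*.

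**Figure D2:**
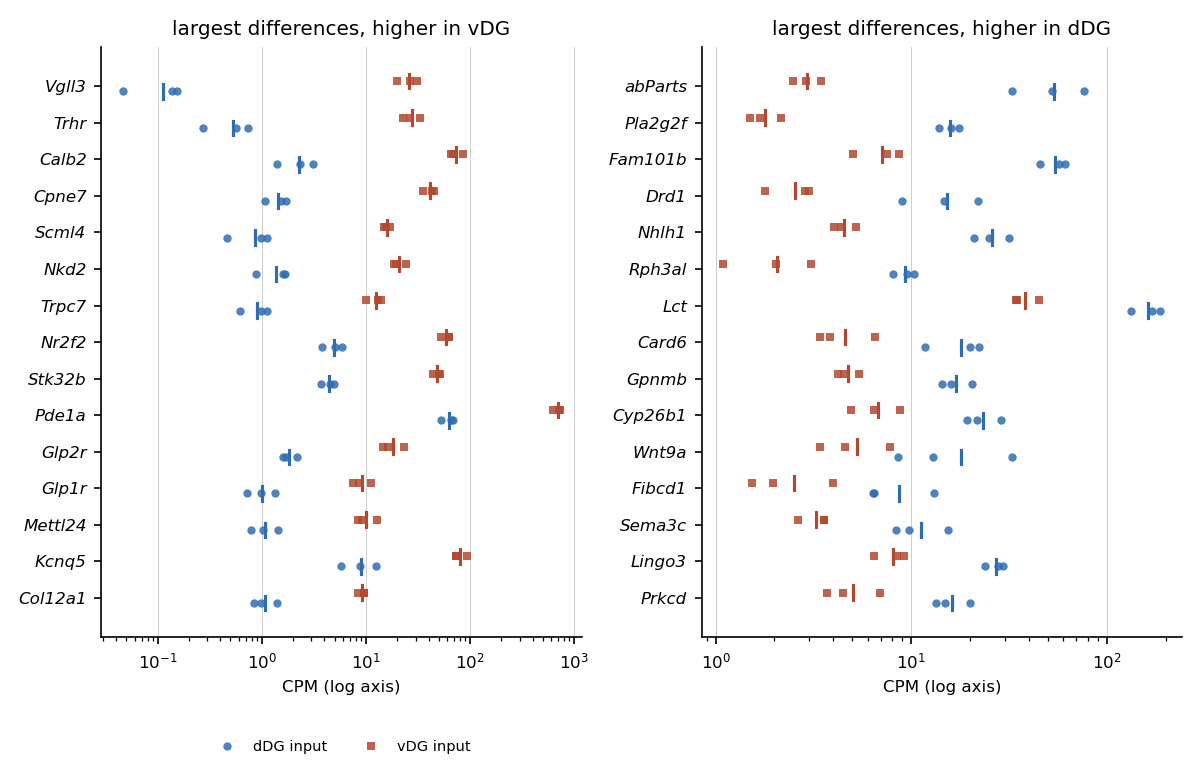
Levels (CPM, log axis) of the 15 genes with the largest differences in each direction are shown for each dDG input (circles) and vDG input (squares), with bars at the mean of 3. No gene shown has overlapping regions, as the naming rule required. Among the 15 genes higher in dDG, Wnt9a, Drd1 and abParts spread most over the dDG inputs on the log axis.

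Serotonin receptors were unevenly placed along the axis. Of 14 receptor genes 10 were tested, 5 of them (50%) were higher in vDG and 1 (10%) was higher in dDG, beside 9.26% and 6.09% of all genes. *Htr1a*, a Gi-coupled receptor (chromosome 13, 105443639 to 105448122, plus strand), had 54.3, 72.7 and 66.9 CPM in vDG and 11.2, 27.0 and 23.5 CPM in dDG, a 3.14-fold difference (log2 1.65 ± 0.22, edgeR FDR 6.29e-05). The groups did not overlap, and dDG replicate 1 was lowest. *Htr4*, the Gs-coupled receptor that the study deletes in its mutants (chromosome 18, 62324204 to 62496577, plus strand), was the receptor called in the other direction. It had 35.1, 30.1 and 25.8 CPM in dDG and 15.2, 19.3 and 14.3 CPM in vDG, again without overlap, and was 1.86-fold higher in dDG (log2 -0.89 ± 0.16, edgeR FDR 6.6e-04).

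Lower-level receptors also leaned to vDG. *Htr3a*, the ligand-gated channel subunit found in a class of interneurons, had 5.93, 8.26 and 6.21 CPM in vDG and 1.90, 2.52 and 2.62 CPM in dDG (log2 1.53 ± 0.23, edgeR FDR 1.92e-04). *Htr7* was 2.99-fold higher in vDG (3.69 ± 0.55 against 1.25 ± 0.49 CPM) and *Htr2c* 3.22-fold higher (3.80 ± 1.32 against 1.14 ± 0.84 CPM). *Htr2a* differed less, at 6.05, 8.55 and 10.1 CPM in vDG and 4.04, 4.47 and 5.21 CPM in dDG (log2 0.84 ± 0.22, edgeR FDR 0.0122). Without vDG replicate 2 the calls of *Htr2a* and *Htr2c* were lost, which left 3 receptors higher in vDG, and that of *Htr2a* was also lost without vDG replicate 3. The log2 difference of *Htr2c* was 1.69, and 2.51 without dDG replicate 3.

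*Htr5a* reached 16.1, 20.3 and 20.1 CPM in vDG and 16.1, 16.1 and 22.4 CPM in dDG and was not called (log2 0.05 ± 0.16, edgeR FDR 0.896). *Htr6* and *Htr2b* overlapped between the regions at levels under 1.5 CPM. *Htr1f* lay higher in every vDG sample, 1.53, 1.39 and 1.14 CPM against 0.604, 0.360 and 0.783 CPM, yet missed the threshold (edgeR FDR 0.082). With limma voom 6 receptors were called higher in vDG, against 5 with edgeR. *Htr1b*, *Htr1d*, *Htr3b* and *Htr5b* had at most 11 reads in any of the 6 samples and were not tested. Per kilobase of exon, *Htr1a* led in vDG at 14.4 CPM, ahead of *Htr5a* at 3.51, *Htr4* at 3.31 and *Htr3a* at 3.27 CPM per kilobase. In dDG the order began with *Htr4* at 6.18, *Htr1a* at 4.58 and *Htr5a* at 3.39 CPM per kilobase. The dDG samples of *Htr1a* (2.50, 6.02 and 5.24 CPM per kilobase) overlapped those of *Htr4* (7.15, 6.13 and 5.25) and of *Htr5a* (3, 3 and 4.16). Within each dDG sample *Htr4* lay above *Htr1a*, though barely in the last 2. *Htr1a* lay below *Htr5a* in the first dDG sample and above it in the others. These orders were not tested. In vDG the values of *Htr1a* (12.1 to 16.2 CPM per kilobase) lay above those of all other receptors, and *Htr5a*, *Htr4* and *Htr3a* overlapped.

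**Figure D3:**
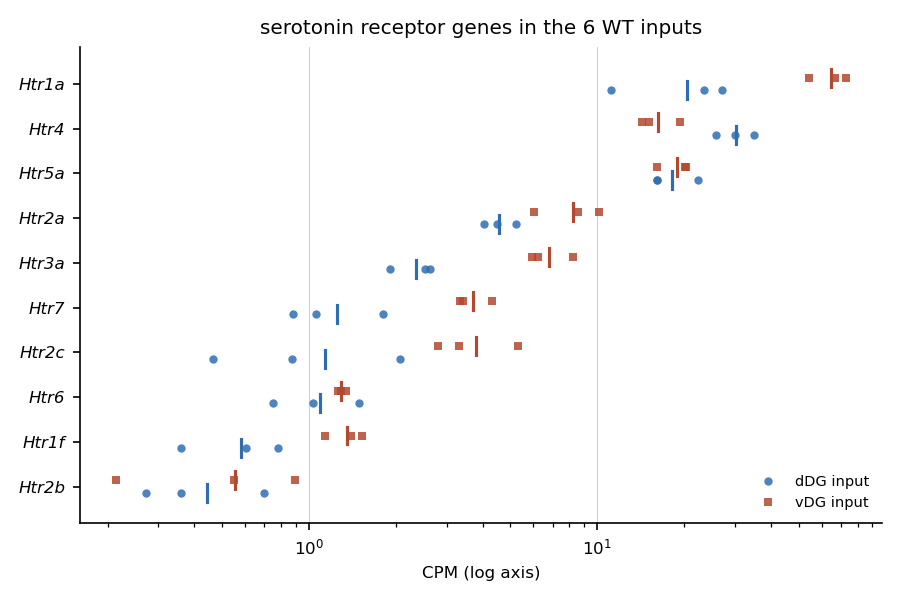
Levels of the 10 tested serotonin receptor genes (CPM, log axis) in each dDG input (circles) and vDG input (squares), with bars at the mean of 3, ordered by mean level. Htr4 is the gene whose dDG samples all lie above its vDG samples, and Htr5a, Htr6 and Htr2b overlap.

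Among dopamine and adrenergic receptors, 4 of 10 tested genes (40%, beside 6.09% of all genes) were higher in dDG and 1 was higher in vDG (10%, beside 9.26%). Besides *Drd1*, its relative *Drd5* had 16.1, 17.02 and 11.6 CPM in dDG and 6.33, 7.54 and 5.81 CPM in vDG (log2 -1.18 ± 0.18, edgeR FDR 2.49e-04). *Drd3* was also higher in dDG (log2 -1.34 ± 0.37), but the Cre driver is a transgene built on *Drd3*, and its reads cannot be told apart from those of the native gene. The adrenergic receptor genes split, *Adra2c* being higher in dDG (-0.80 ± 0.18) and *Adra2a* higher in vDG (1.22 ± 0.29). The call of *Adra2a* was lost without vDG replicate 3 (3 genes were higher in vDG without vDG replicate 1), and that of *Drd3* without vDG replicate 2, vDG replicate 3 or dDG replicate 1. Of 8 markers of amygdala and striatum 3 (37.5%) were higher in dDG, *Drd1*, *Adora2a* and *Sema5a*, and edgeR called 0 higher in vDG (2 at an unadjusted p under 0.05, 0 with DESeq2 or limma voom). Their summed level was 1607 to 1800 CPM in dDG and 1228 to 1446 CPM in vDG, and the part of such tissue in the receptor values was not tested.

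*Nr3c2*, the mineralocorticoid receptor, had 237, 242 and 281 CPM in dDG and 151, 173 and 182 CPM in vDG (log2 -0.59 ± 0.12, edgeR FDR 0.00162), and *Nr3c1*, the glucocorticoid receptor, was lower in vDG by a similar step (-0.45 ± 0.11). Their target gene *Sgk1* was also higher in dDG (-0.57 ± 0.12). In contrast, the oxytocin receptor gene *Oxtr* had 6.72, 11.3 and 7.75 CPM in vDG and 2.14, 1.34 and 0.885 CPM in dDG, a 6.01-fold difference (edgeR FDR 1.11e-05). *Esr1*, the estrogen receptor alpha gene, was 5.78-fold higher in vDG at low levels (3.24 ± 0.98 against 0.544 ± 0.282 CPM). In all, 2 of 11 tested genes of the stress axis and steroid receptor list (18.2%) were higher in vDG and 3 (27.3%) were higher in dDG, beside 9.26% and 6.09% of all genes.

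Of 28 tested neuropeptide receptor genes, 10 (35.7%) were higher in vDG and 3 (10.7%) in dDG, beside 9.26% and 6.09% of all genes. *Npr3*, the natriuretic peptide clearance receptor, had 16.5, 15.1 and 17.1 CPM in vDG and 2.88, 2.16 and 1.80 CPM in dDG (log2 2.84 ± 0.20). The somatostatin receptor genes *Sstr1* (1.86 ± 0.15) and *Sstr3* (1.31 ± 0.15) were higher in vDG, as was *Npy2r* (1.17 ± 0.13), the presynaptic receptor for neuropeptide Y. The 3 receptor genes higher in dDG were *Npy1r*, *Npy5r* and the delta opioid receptor gene *Oprd1*. Thus the neuropeptide Y receptors did not move as a family: *Npy1r* had 110, 109 and 85.4 CPM in dDG and 54.0, 50.02 and 47.5 CPM in vDG, whereas *Npy2r* had 44.3, 33.5 and 34.2 CPM in dDG and 80.4, 92.0 and 79.0 CPM in vDG. Neither gene overlapped between regions. *Npy5r* had 8.73, 8.33 and 7.86 CPM in dDG and 3.97, 4.68 and 5.72 CPM in vDG.

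Peptide and growth factor genes were called in both directions, 7 of 27 (25.9%) higher in vDG and 4 (14.8%) higher in dDG, beside 9.26% and 6.09% of all genes. *Grp*, encoding gastrin-releasing peptide, had 12.1, 12.6 and 14.5 CPM in vDG and 2.04, 2.01 and 2.45 CPM in dDG (log2 2.58 ± 0.19). *Sst*, the somatostatin gene, had 37.1, 74.2 and 46.2 CPM in vDG and 12.2, 15.1 and 15.9 CPM in dDG (log2 1.86 ± 0.21), and *Adcyap1*, encoding PACAP, had a log2 difference of 2.32 ± 0.22. *Penk*, the proenkephalin gene, was higher in dDG, at 16.3, 17.3 and 23.1 CPM against 4.64, 8.51 and 5.76 CPM (-1.58 ± 0.21). *Nrn1*, encoding the activity-regulated factor neuritin, was likewise higher in dDG (-0.71 ± 0.12). *Sst* was higher in the same region as the receptor genes *Sstr1* and *Sstr3*, and *Penk* in the same region as the delta opioid receptor gene *Oprd1* (-1.47 ± 0.18). These pairs were set side by side after the values were seen, and a link within them was not tested.

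Cannabinoid, purinergic and cholinergic receptors had 6 of 13 tested genes (46.2%, beside 9.26% of all genes) higher in vDG and 1 higher in dDG (7.69%, beside 6.09%). The dorsal count was 2 without vDG replicate 2. *Cnr1*, the cannabinoid receptor of presynaptic terminals, had 188, 214 and 224 CPM in vDG and 71.7, 102 and 72.8 CPM in dDG (log2 1.34 ± 0.14, edgeR FDR 3.63e-06). The muscarinic receptor genes *Chrm4* (2.37 ± 0.30) and *Chrm3* (1.44 ± 0.21) and the nicotinic subunit gene *Chrna4* (1.32 ± 0.18) were higher in vDG too. *Adora2a* went the other way with 84 reads in the dDG inputs and 7 in the vDG inputs, a 13.3-fold ratio with a counting interval of 6.18 to 34.1.

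Of 46 transcription factor genes with known roles in forebrain patterning, 15 (32.6%) were higher in vDG and 8 (17.4%) higher in dDG, beside 9.26% and 6.09% of all genes. Their median log2 difference was 0.12. Besides *Nr2f2*, *Tox3* was 3.66-fold higher in vDG (29.5 ± 3.69 against 8.06 ± 1.62 CPM), and *Sox5* (log2 1.03 ± 0.14) and *Tshz1* (0.81 ± 0.13) followed. The related receptor gene *Nr2f1* differed much less (0.64 ± 0.13). On the dorsal side were abundant factors of excitatory neurons. *Neurod2* had 577, 521 and 644 CPM in dDG and 209, 279 and 280 CPM in vDG (log2 -1.18 ± 0.13), and *Bcl11b*, encoding CTIP2, had 644, 565 and 601 CPM against 319, 341 and 299 CPM (-0.92 ± 0.11). *Prox1*, the master regulator of granule cell identity, was lower in vDG by a smaller step (-0.50 ± 0.11, edgeR FDR 0.00305). In a list of 20 tested genes put together from known markers of hippocampal position, 12 (60%) were higher in vDG and 5 (25%) in dDG, and the list was written with earlier results of these data known.

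Of 73 potassium channel genes 14 (19.2%) were higher in vDG and 8 (11%) in dDG, and of 24 calcium channel genes 3 (12.5%) and 2 (8.33%) were, beside 9.26% and 6.09% of all genes. The ventral count of potassium channels was 6 without vDG replicate 3 and 9 without vDG replicate 2 or dDG replicate 2, and the dorsal count was 5 without vDG replicate 3 or dDG replicate 1. The ventral count of calcium channels was 6 with limma voom and 3 with DESeq2. After *Kcnq5*, *Kcnc2* had the clearest ventral difference at 76.8, 77.3 and 85.3 CPM against 20.9, 26.8 and 28.2 CPM (log2 1.65 ± 0.13). *Kcnk1*, a leak channel subunit, was higher in dDG (161, 145 and 135 against 66.5, 78.6 and 70.9 CPM), and so was *Kcnj11*, the pore subunit Kir6.2 of ATP-sensitive channels (-1.05 ± 0.14). The T-type calcium channel genes moved apart, *Cacna1h* being higher in dDG (-1.14 ± 0.16) and *Cacna1i* higher in vDG (1.16 ± 0.18). Of 14 sodium and HCN channel genes 4 (28.6%, beside 9.26% of all genes) were higher in vDG and 0 were called higher in dDG by edgeR, DESeq2 or limma voom, with 1 at an unadjusted p under 0.05 and 1 called by edgeR without vDG replicate 2. *Scn7a* had 8.45, 10.8 and 6.74 CPM in vDG and 0.093, 0.309 and 0.340 CPM in dDG, and its chromosome 2 neighbour *Scn9a* was 8.15-fold higher in vDG.

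Among transmitter receptors, *Grm2*, encoding a presynaptic metabotropic glutamate receptor of mossy fibers, was 2.31-fold higher in dDG (95.2 ± 10.6 against 41.1 ± 3.81 CPM). Of 25 glutamate receptor genes 5 (20%) were higher in vDG and 2 (8%) in dDG, beside 9.26% and 6.09% of all genes, and among the first were the kainate receptor gene *Grik4* (log2 0.93 ± 0.17) and the AMPA receptor gene *Gria4* (0.65 ± 0.15). The ventral count was 3 without vDG replicate 3, where *Grik1* and *Grm8* were lost, and the dorsal count was 1 without vDG replicate 3 or dDG replicate 1. Of 14 GABA receptor genes 3 (21.4%) were higher in vDG and 2 (14.3%) in dDG, with *Gabra3* among the first (1.5 ± 0.19). *Gabrd*, the subunit of tonic inhibition in granule cells, was called higher in dDG with overlapping regions (20.4, 16.4 and 10.7 against 12.1, 7.97 and 8.12 CPM, edgeR FDR 0.0275), and its call was lost without any of 4 samples. The ventral count of GABA receptors was 1 without vDG replicate 2 or dDG replicate 3.

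Genes for axon guidance were called in both directions. *Efnb2*, an ephrin ligand, had 30.5, 33.3 and 40.3 CPM in vDG and 9.34, 8.74 and 6.12 CPM in dDG (log2 2.11 ± 0.17). The receptor genes *Epha7* (-1.03 ± 0.12), *Epha5* (-0.89 ± 0.12) and *Epha4* (-0.41 ± 0.10) were all higher in dDG, and *Epha7* reached 425, 349 and 383 CPM there. The call of *Epha4* was lost without vDG replicate 3. *Slit2*, a repellent ligand, was 4.32-fold higher in vDG (51.7 ± 10.5 against 12.0 ± 2.76 CPM). Its receptors split, with *Robo1* higher in vDG (0.97 ± 0.13) and *Robo3* higher in dDG at 6.46, 5.35 and 4.63 against 1.18, 1.001 and 0.853 CPM. The netrin receptor genes *Unc5c* (0.92 ± 0.12) and *Dcc* (0.83 ± 0.12) were higher in vDG. *Plxna1*, *Plxnc1* and *Sema3e* were higher in vDG with log2 differences of 1.17, 1.01 and 1.31, and *Sema7a* and *Sema6d* higher in dDG with -1.05 and -0.74. Of 28 semaphorin, plexin and neuropilin genes tested, 8 (28.6%) were higher in vDG and 4 (14.3%) in dDG, beside 9.26% and 6.09% of all genes. Cadherins and protocadherins, by comparison, had 9 and 6 of 82 genes called, shares of 11% and 7.32%. The ventral count of cadherins was 4 without vDG replicate 2, and the dorsal count was 3 without vDG replicate 1 or vDG replicate 3.

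Wnt genes were called in 8 of 28 cases (28.6%) as higher in vDG and in 3 (10.7%) as higher in dDG, beside 9.26% and 6.09% of all genes, and the dorsal count was 1 without vDG replicate 1, vDG replicate 2 or dDG replicate 3. The ligand gene *Wnt4* had 7.58, 10.1 and 9.30 CPM in vDG and 0.279, 0.720 and 0.374 CPM in dDG, a 20.02-fold difference (log2 4.32 ± 0.30, edgeR FDR 5.52e-08). *Rspo2*, which raises Wnt receptor levels at the membrane, had a log2 difference of 1.73 ± 0.29 and the receptor gene *Fzd1* one of 1.26 ± 0.21. For 2 further members reads were few, since *Wnt2* had 61 reads in vDG and 5 in dDG (ratio 11, counting interval 4.46 to 35.1) and the inhibitor gene *Sfrp2* had 45 and 2 (ratio 20.3, interval 5.30 to 173). On the side of BMP and activin signaling, *Fst*, the activin antagonist follistatin, was 7.76-fold higher in dDG (4.39 ± 1.08 against 0.555 ± 0.255 CPM), and so were the activin subunit gene *Inhba* (-1.30 ± 0.17), *Fstl4* (-1.41 ± 0.17) and *Bmp6* (-1.33 ± 0.27). *Fgf10* had 27.8, 20.6 and 25.7 CPM in vDG and 8.13, 8.18 and 8.61 CPM in dDG (1.57 ± 0.15).

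Immediate early genes, which neurons switch on upon activity, gave 4 calls in each direction among 22 (18.2% each, beside 9.26% and 6.09% of all genes), and the dorsal count was 2 without vDG replicate 2. The Nr4a family of orphan nuclear receptors was higher in vDG throughout. *Nr4a3* had 128, 152 and 142 CPM in vDG and 34.3, 44.5 and 58.6 CPM in dDG (log2 1.62 ± 0.16), *Nr4a1* differed by 1.31 ± 0.22 and *Nr4a2* by 0.82 ± 0.19. *Dusp1*, a phosphatase of MAP kinases, was higher in vDG as well (0.94 ± 0.19). *Inhba* and *Nptx2* (-1.15 ± 0.24), encoding a secreted pentraxin of excitatory synapses, were higher in dDG. The other 14 members, *Fos* and *Arc* among them, did not pass the threshold.

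The cyclic AMP response element TGACGTCA, the palindrome bound by CREB, is shown for the named genes that hold it upstream of their start, because the cyclic nucleotide enzyme genes *Adcy1* and *Pde1a* were among the largest differences at high level. RefSeq windows of 250 bases before to 50 after the start (GRCm38.p6) were found for 70.6% of the genes tested, and 344 of 10878 windows (3.16%) held the element on either strand. It was in 23 of 1033 windows (2.23%) of genes higher in vDG and in 19 of 687 (2.77%) of genes higher in dDG. Neither share exceeded that of all genes. As fewer than 80% of genes had a window, differences between these shares were not tested. Among the named genes, 4 held the element in the upstream 250 bases. Of these, *Sst*, *Dusp1* and *Nr2e1* (a receptor of neural progenitors), were higher in vDG and *Fstl4* was higher in dDG. Each stretch runs 5′ to 3′ on the gene's strand, with the element in capitals.
Sst (chr16:23890845-23890932, minus strand): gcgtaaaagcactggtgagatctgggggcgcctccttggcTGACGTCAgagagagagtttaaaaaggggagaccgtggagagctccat
Dusp1 (chr17:26508568-26508655, minus strand): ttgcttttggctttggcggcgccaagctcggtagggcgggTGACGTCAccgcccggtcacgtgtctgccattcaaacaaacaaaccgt
Nr2e1 (chr10:42583668-42583755, minus strand): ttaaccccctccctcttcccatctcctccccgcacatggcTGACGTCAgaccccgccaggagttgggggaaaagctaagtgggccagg
Fstl4 (chr11:52764589-52764676, plus strand): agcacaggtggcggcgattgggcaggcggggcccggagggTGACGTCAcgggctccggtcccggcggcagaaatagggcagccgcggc
Counted from the start, the element begins at position -48 in *Sst*, -77 in *Fstl4*, -125 in *Nr2e1* and -143 in *Dusp1*. A match of letters is not a measured binding site.

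The cell types of the tissue were compared through marker lists, and in bulk tissue fewer cells of a type cannot be told apart from less RNA per cell. Granule cell markers were higher in dDG for 12 of 20 genes (60%, beside 6.09% of all genes) and higher in vDG for 1, *Actn2* (5%, beside 9.26%), whose call was lost without vDG replicate 1 or 2 and without dDG replicate 2 or 3. Their summed level was 5102, 5132 and 5681 CPM in dDG and 3096, 3527 and 3451 CPM in vDG. *Lrrtm4* (log2 -0.86 ± 0.11), *Stxbp6* (-0.76 ± 0.10), *Pdzd2* (-1.10 ± 0.15) and *Plk5* (-1.04 ± 0.17) were among the calls, whereas *Calb1* was at 231, 293 and 244 CPM in dDG and 248, 233 and 239 CPM in vDG and was not called. The median log2 difference of the list was -0.52.

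CA3 markers and interneuron markers leaned to vDG. Of 10 tested CA3 markers 7 (70%, beside 9.26% of all genes) were higher in vDG, and their summed level was 1015, 1103 and 1134 CPM in vDG against 428, 448 and 530 CPM in dDG. *Nnat* led with 235, 257 and 328 CPM against 48.0, 61.5 and 67.1 CPM, and *Spock1*, *Pvrl3* (encoding Nectin-3, log2 1.80 ± 0.14) and *Dkk3* (1.54 ± 0.14) followed. In ribosome-bound RNA of WT vDG cells with Cre, *Nnat* had 208 CPM, *Spock1* 245 and *Dkk3* 257 CPM (means of 3 samples). Interneuron markers were higher in vDG for 13 of 23 genes (56.5%, median log2 difference 0.61), with summed levels of 1276 to 1594 CPM against 802 to 880 CPM. *Gad2*, the GABA-synthesizing enzyme GAD65, had 278, 290 and 284 CPM in vDG and 165, 214 and 177 CPM in dDG (0.61 ± 0.12, edgeR FDR 0.00119), and *Cck* (1.17 ± 0.17) and *Nos1* (0.80 ± 0.12) were also higher. *Calb2* is on this list as well. In the same ribosome-bound RNA *Cck* had 446 CPM, *Nos1* 257, *Gad2* 63.1, *Calb2* 62.6 and *Sst* 5.11 CPM, and the part of Cre-expressing cells in the interneuron sum was not tested. *Gad1*, *Slc32a1*, *Pvalb*, *Vip*, *Npy* and *Reln* did not pass the threshold. Cajal-Retzius markers gave 1 call of 6, the interneuron gene *Ndnf* (0.84 ± 0.20), which was lost without vDG replicate 2.

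Of 9 mossy cell markers 4 (44.4%) were higher in vDG and 1 (11.1%) was higher in dDG, beside 9.26% and 6.09% of all genes. *Calb2*, *Ociad2* (log2 1.49 ± 0.14), *Mgat4c* (2.25 ± 0.24) and *Calcrl* (0.91 ± 0.21) were higher in vDG and *Nmb*, encoding neuromedin B, was higher in dDG at 3.44, 3.96 and 4.83 CPM against 1.30, 0.894 and 1.79 CPM. *Drd2*, a defining gene of mossy cells, was at 2.14, 1.95 and 1.91 CPM in dDG and 2.32, 4.11 and 3.78 CPM in vDG and missed the threshold (edgeR FDR 0.0876). CA1 markers were called 3 times in each direction among 9 (33.3% each), but the dorsal count was 1 without vDG replicate 3, where *Pou3f1* and *Ndst4* were lost. Of 8 CA2 markers 1 was higher in vDG (*Amigo2*, 1.61 ± 0.20) and 2 were higher in dDG, *Cacng5* (-1.27 ± 0.20) and *Sostdc1* (-1.19 ± 0.37). *Sostdc1* is also on the choroid plexus list, and its call was lost without vDG replicate 1 or 2 and without dDG replicate 2 or 3. Of 11 markers of subiculum and cortex 5 (45.5%), *Fezf2*, *Etv1*, *Lamp5*, *Rorb* and *Tshz2*, were higher in vDG and 1 (9.09%), *Tbr1*, was higher in dDG, with summed levels of 459 to 544 CPM in vDG and 400 to 436 CPM in dDG. The call of *Tshz2* was lost without vDG replicate 1 or 2 and without dDG replicate 2 or 3. The part of neighbouring CA, subicular or cortical tissue in these values was not tested.

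Markers of adult neurogenesis were mixed, with 5 of 19 (26.3%) higher in vDG and 2 (10.5%) higher in dDG, beside 9.26% and 6.09% of all genes. *Dpysl3* (log2 1.10 ± 0.19), *Ccnd2* (0.79 ± 0.14), *Nr2e1* (0.63 ± 0.15) and *Tubb3* (0.59 ± 0.15) were higher in vDG, while *Sox4* (-1.09 ± 0.25) and the proliferation gene *Top2a* (-1.15 ± 0.36) were higher in dDG at levels of at most 5.50 CPM. The call of *Top2a* was lost when any of 5 of the 6 samples was left out, that of *Nr2e1* without vDG replicate 2 and that of *Tubb3* without vDG replicate 3 or dDG replicate 1. The ventral count was 3 without vDG replicate 3 or dDG replicate 1, and the dorsal count was 5 without dDG replicate 1. With DESeq2, and likewise with limma voom, 4 members were higher in vDG and 4 higher in dDG.

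Of 16 oligodendrocyte markers 9 (56.2%, beside 6.09% of all genes) were higher in dDG (median log2 difference -0.51). *Mal*, encoding a proteolipid of myelin, had 29.5, 32.8 and 34.6 CPM in dDG and 19.6, 24.7 and 20.2 CPM in vDG (log2 -0.59 ± 0.14, edgeR FDR 0.00697), and *Cldn11*, *Aspa*, *Opalin* and *Ermn* had log2 differences of -1.2, -1.06, -1.27 and -0.66. *Mbp*, by contrast, was at 205, 217 and 226 CPM in dDG and 186, 226 and 199 CPM in vDG. The summed level was 668 to 689 CPM in dDG and 502 to 601 CPM in vDG. Of 16 astrocyte markers 3 (18.8%, beside 9.26% of all genes) were called, *Aldoc* (0.46 ± 0.11), *Sox9* (0.63 ± 0.16) and *Agt* (0.79 ± 0.23), all higher in vDG. The call of *Sox9* was lost without vDG replicate 1 or dDG replicate 2, and that of *Agt* without vDG replicate 3, dDG replicate 2 or dDG replicate 3. The count of astrocyte markers was 1 without dDG replicate 2. In cKO inputs 1 astrocyte marker (6.25%) was higher in vDG and 2 (12.5%) were higher in dDG, beside 8.56% and 8.47% of all genes in the cKO fit. For 16 microglial, 15 endothelial and mural and 6 oligodendrocyte precursor markers edgeR gave 0 calls. At an unadjusted p under 0.05, 0 microglial and 0 precursor markers passed, and 1 endothelial marker was higher in vDG and 4 in dDG. DESeq2 and limma voom gave 0 calls as well, except for 1 endothelial marker higher in dDG with limma voom, and without dDG replicate 3 edgeR called 5 endothelial markers higher in dDG.

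Choroid plexus and meningeal markers were raised in 1 or 2 dDG samples. *Ttr*, the transthyretin gene of the choroid plexus, had 4.27 CPM in dDG replicate 1 but 75.1 and 125 CPM in replicates 2 and 3, against 3.54, 3.15 and 5.07 CPM in vDG, so the regions overlapped although the gene was called (edgeR FDR 4.82e-04). Summed choroid plexus markers were 91.2, 174 and 248 CPM in the dDG samples and 79.7 to 87.9 CPM in vDG, and 4 of 10 genes (40%) were called higher in dDG, against 1 without dDG replicate 3. *Kl* and *Otx2*, further genes of this list, did not pass the threshold. *Ptgds*, abundant in meninges, had 224 CPM in dDG replicate 2 and 38.3 to 74.1 CPM in the other 5 samples. Its call was lost without dDG replicate 2 (log2 difference -0.31, against -1.16 with it), without any 1 of the vDG samples, and with DESeq2. The count of all genes higher in dDG was 938, and 620 without dDG replicate 2, 892 without dDG replicate 3, 652 without vDG replicate 3 and 703 without vDG replicate 2, so the count fell without single samples of either region.

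**Figure D4:**
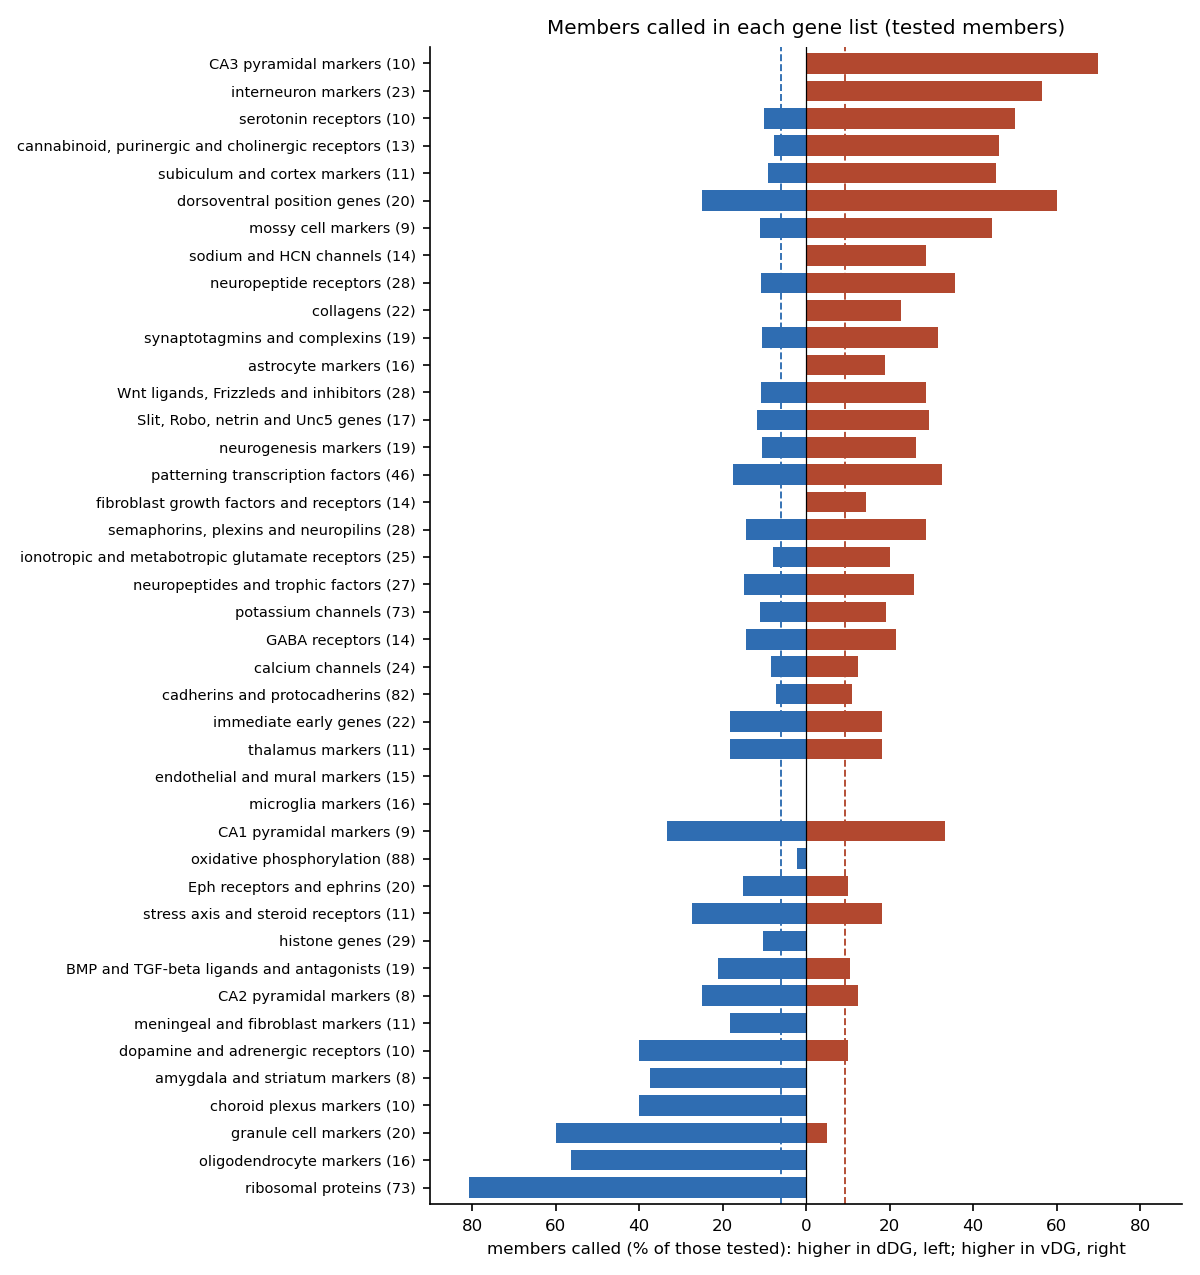
For each gene list with at least 8 tested members (number in brackets) the bars give the percent of members higher in vDG (right, red) and higher in dDG (left, blue), and dashed lines mark the shares over all genes, 9.26% and 6.09%. CA3 markers, position genes and interneuron markers reach farthest to the ventral side and ribosomal proteins, granule cell and oligodendrocyte markers farthest to the dorsal side.

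Of 73 tested ribosomal protein genes 59 (80.8%) were higher in dDG, beside 6.09% of all genes, with a median log2 difference of -0.52. *Rps27* had 156, 192 and 138 CPM in dDG and 90.6, 85.2 and 108 CPM in vDG (-0.77 ± 0.13, edgeR FDR 6.43e-04), and *Rps23*, *Rps16*, *Rps29* and *Rpl14* had log2 differences of -0.64, -0.83, -0.81 and -0.58. Summed over the list, dDG replicate 2 was highest at 12320 CPM, and the other dDG samples had 10250 and 9535 CPM, against 7111 to 7848 CPM in vDG. The count was 20 without dDG replicate 2, 32 without vDG replicate 2 and 38 without vDG replicate 3. Of 88 genes of oxidative phosphorylation, another abundant class, 2 (2.27%) were higher in dDG, *Uqcc2* and *Atp5g2*, and the summed level overlapped between regions (7538 to 8630 CPM in vDG and 7922 to 8611 CPM in dDG). Both calls were lost without vDG replicate 2 or without dDG replicate 2, the dorsal count was 4 without vDG replicate 3 and 6 without dDG replicate 3, and in cKO inputs 18 of 89 genes of this class (20.2%, beside 8.56% of all genes there) were higher in vDG. Ribosomal protein genes have many processed pseudogenes, so their counts depend on how reads that match several places were treated, and 9.28 to 11.6% of reads in these samples were set aside as not unique.

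The 4 input samples of mice with a conditional *Htr4* deletion (cKO, 2 per region), which share no sample with the WT comparison, gave the same sign for 1275 of 1415 genes (90.1%) higher in WT vDG and for 827 of 932 (88.7%) higher in WT dDG, against 64.3% of all genes tested in both. In an edgeR fit of the cKO samples alone, 739 and 501 of these genes were themselves called in that direction, and of all 15505 genes in that fit 8.56% were higher in vDG and 8.47% higher in dDG. The log2 differences were 6.41 in cKO and 5.75 in WT for *Trhr*, 5.22 and 5.01 for *Calb2*, 3.40 and 3.61 for *Nr2f2*, -2.07 and -2.10 for *Lct* and -0.80 and -0.89 for *Htr4*. For *Sv2b* they were 0.92 in cKO and 2.54 in WT, for *Kcnq5* 1.91 and 3.14 and for *Dkk3* 0.40 and 1.54. Beside these cKO shares, granule cell markers were higher in dDG for 14 of 20 genes (70%), interneuron markers higher in vDG for 8 of 23 (34.8%) and CA3 markers for 4 of 10 (40%). Other lists had more genes higher in dDG than in vDG in cKO samples and the reverse in WT samples. Among them were cadherins and protocadherins with 2 higher in vDG and 16 higher in dDG of 81, potassium channels with 7 and 12 of 73, glutamate receptors with 3 and 7 of 24, GABA receptors with 1 and 4 of 14 and calcium channels with 2 and 6 of 23. Of the 73 ribosomal protein genes 2 were higher in each region in cKO samples, with a median log2 difference of 0.08. Their summed levels there were 9588 and 8478 CPM in dDG and 9433 and 8171 CPM in vDG. A difference between the genotypes was not tested here.

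**Figure D5:**
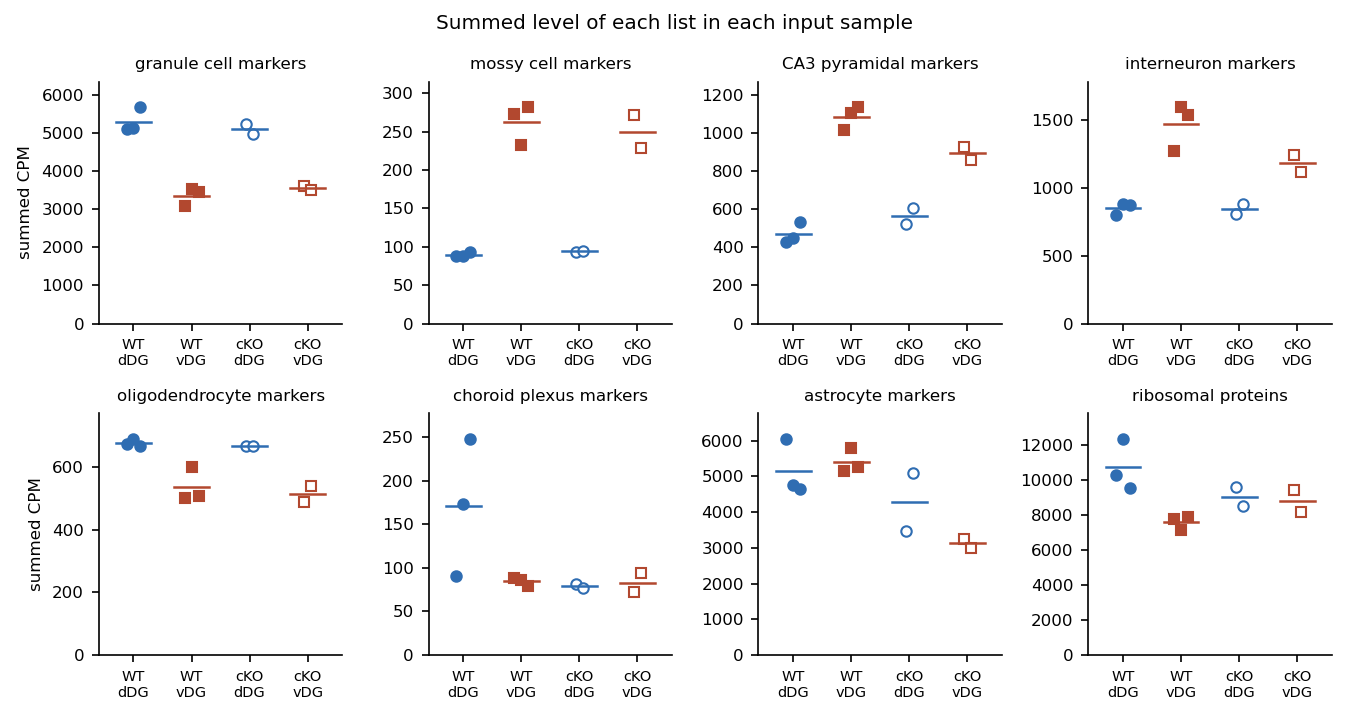
Summed levels (CPM, axes from 0) of 8 gene lists in each input sample, with WT samples filled, cKO samples open and bars at the group means. Granule cell, mossy cell, CA3, interneuron and oligodendrocyte sums separate the regions in both genotypes, choroid plexus markers are raised in 2 WT dDG samples, and ribosomal protein sums separate the regions in WT samples.

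Length and level of the called genes were described as well. A length was known for 96.4% of genes higher in vDG, 95.2% of those higher in dDG and 91.5% of all genes tested. The median exonic length was 5180 bases for genes higher in vDG, 4781 for genes higher in dDG and 4520 for all, and the median span in the genome was 44639, 31778 and 25432 bases. Genes higher in dDG were the more abundant, with a median level of 37.7 CPM against 19.5 CPM for genes higher in vDG and 15.0 CPM for all. In ribosome-bound RNA of Cre-expressing cells of the WT vDG, 93.9% of the genes higher in vDG reached 1 CPM, against 90% of those higher in dDG and 81.2% of all. The IP samples came from vDG alone, and both called groups were more abundant than all genes tested, so these shares do not compare like with like. The differences between them were not tested.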

How the data were processed

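RNA-seq of 6 WT inputs (3 vDG, 3 dDG) was analysed. Per the study's methods, amplified RNA (Ovation V2) was made into TruSeq libraries, and trimmed reads were aligned to mm10 with STAR (2.4.2a), freed of duplicates with SAMtools (0.1.19-444) and counted per gene with HTSeq in union mode at its defaults, which treat reads as stranded. The counts deposited by the authors are whole numbers without normalization. Reads carry no molecular identifiers, so counting intervals cover counting error only. Whether the libraries kept strand was not given in the sources used here, and reads of overlapping genes may not be separated. The authors' tables of normalized values, fold changes and p-values were not used. Rows naming no gene were dropped before library sizes were computed (reads without a feature 15.5 to 18.7%, ambiguous reads 5.62 to 8.60%).

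Genes kept by filterByExpr were scaled by TMM and tested with edgeR 4.0.16 in R 4.3.3 (quasi-likelihood F-test, region as the only term, Benjamini-Hochberg FDR under 0.05), and SE was taken from the F statistic. Replicates differed by more than sampling noise (chi-square per degree of freedom 20.1 to 44.3). GENCODE M21 (GRCm38, the assembly of mm10) matched 23964 of 32657 features by symbol.

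Named genes were, per direction, the 15 called genes with the largest differences whose mean level reached 5 CPM and whose regions did not overlap, the 10 largest reaching 50 CPM, all serotonin receptors and region markers, and up to 6 called members of lowest FDR from each of 49 lists. Unnamed transcripts were passed over. *Prox1*, *Calb1*, *Mbp*, *Drd2*, *Nr2f1*, *Actn2*, *Npy1r*, *Npy5r*, *Oprd1* and other members named outside this rule were added after their values were seen. Members and lists were chosen with earlier results of these data known. Alternatives were DESeq2 1.42.0, limma 3.58.1 (voom), other scalings, filters and thresholds, all 10 inputs in one fit, a replicate block and leaving out each sample. Scripts were tested on simulated data. Some genes are not reported here.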

Additional observations from a re-analysis of the deposited data

How the results depend on the processing

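The number of genes higher in vDG was 1463 with DESeq2 and 1571 with limma voom, against 1427 with edgeR, and 1078 and 1048, against 938, were higher in dDG. No gene called in one direction was called in the other under any of 17 alternatives. Counts were 866 and 464 at an FDR under 0.01, and 586 and 216 when a 2-fold difference was also asked for. Leaving out 1 sample gave 1033 to 1304 genes higher in vDG and 620 to 892 higher in dDG, with 620 reached without dDG replicate 2. Of all calls 60.3% were higher in vDG, 65.1% at an FDR under 0.01 and 73.1% with the 2-fold requirement. Of 222 named genes that were called, 7 lost the call in at least 1 other fit and 36 when some sample was left out, and none changed its sign. Among receptors that were not called, the log2 difference of *Htr2b* was -0.202 without vDG replicate 3 and up to 0.799 without dDG replicate 1, and that of *Htr5a* was -0.0162 without vDG replicate 2, -0.00222 without vDG replicate 3, -0.0414 without dDG replicate 1 and -0.0346 without dDG replicate 2, but 0.219 without dDG replicate 3, and the cause was not tested. Of the WT calls, 89.6% had the same sign in cKO inputs. This share was 88.1% with DESeq2, 87.4% with limma voom, 87.1% without a filter on counts, 86.6% with the replicate block, 95.1% at an FDR under 0.01, 86.1% at an FDR under 0.1, 99.0% with the 2-fold requirement and 87.8 to 94.7% when 1 WT sample was left out. A replicate block gave 1717 and 1230 genes, but equal numbers were not shown to mark paired samples, as deviations of same-numbered samples correlated at 0.389, -0.105 and 0.239 over 9357 genes, and not every sample correlated best with its own number. With 3 pools per region, an exact permutation test of a single gene cannot go below p = 0.1.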

Other observations

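Of 512 genes tested on the X chromosome in WT inputs, 84 (16.4%) were higher in vDG and 19 (3.71%) higher in dDG, and their median log2 difference was 0.07. Over all genes these shares were 9.26% and 6.09%, and over the other chromosomes 7.48% to 12.5% and 3.61% to 8.3%. In the cKO inputs 45 of 504 (8.93%) were higher in vDG and 49 (9.72%) higher in dDG, beside 8.56% and 8.47% of all genes in the cKO fit.

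A few genes at low level had nearly all their reads in vDG, and they were chosen after their values were seen. *Krt5*, encoding a keratin of epithelial cells, had 211 reads in the vDG inputs and 3 in the dDG inputs. *Trpa1*, encoding an irritant-sensing cation channel, had 199 and 2 reads.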
